A study of Mus musculus with 4 samples.

Results

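The genes described here are 36 antioxidant and NRF2 pathway genes, read across 4 arrays of mouse aorta RNA. They were taken by symbol from the platform annotation, keeping each probe set (the group of short probes that reads 1 transcript) annotated to a single gene. Of the 36 genes, 32 had such a probe set, 65 probe sets in all, and 30 genes passed a filter on low values, out of 11715 genes that passed it on the whole array. Hmox1 and Slc7a11 lay below the filter, and Prdx1, Prdx5, Prdx6 and G6pdx had no probe set of their own in the annotation used here. For Prdx1, 5 probe sets named a further gene as well and were left out.

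The design has 4 groups with 1 array each. The control, B6, is the C57BL/6 strain with the apoE-/- genotype (no apolipoprotein E) and carries the label atherosclerosis. Ath29 is a congenic strain, a C57BL/6 background with a donor segment in place of part of the genome, whose label reads resistant to the disease. The labels give the apoE-/- genotype for the controls only. Weaning was at 3 weeks of age in each group, and from 4 weeks the mice ate chow or a Western diet for 2 weeks, to 6 weeks of age at harvest. Whether 1 mouse or a pool gave the RNA of an array is not in the labels. No group has a second array, so no difference here has a replicate check, and fewer cells of a type cannot be told apart from less RNA per cell.

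NRF2, encoded by Nfe2l2, is a transcription factor that is held in the cytoplasm and sent to degradation by KEAP1. When oxidants or electrophiles modify KEAP1, NRF2 builds up in the nucleus and switches on genes for glutathione synthesis, thioredoxin recycling, conjugating enzymes and NADPH supply through antioxidant response elements. In the vessel wall these systems, with superoxide dismutases, catalase, peroxiredoxins and metallothioneins, remove superoxide, peroxides and aldehydes formed when lipoproteins oxidise.

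Values of the 4 arrays are always listed with B6 first and Ath29 after it, chow before Western diet within each. Intensities are on the linear scale of the deposited table after each array was set to a common median. A value under 27.5 intensity units, the median over all probe sets, was not told apart from background. Array medians lay between 27.9 and 28.8 before scaling. The Apoe probe set read from 7.17 to 25.1, and since it is not known here whether it lies in the deleted part, this checks no genotype. The extract protocol names liver and the source label aorta. Smooth muscle markers passed the filter in 8 of 8 cases and summed to between 26271 and 31701 intensity units, while of 8 hepatocyte markers 5 lay below the filter and 2 passed it, Alb at 33.7 to 64.0 and Cyp2e1 at 2541, 4852, 4560 and 2866. B6 Western stood apart by its heart muscle genes, which summed to 9278 units against 490 to 820 on the other arrays (7 of 8 passed). Brown fat markers (7 of 7 passed) summed to 8294 (chow) and 17681 (Western) in B6 and 13439 and 10427 in Ath29 mice.

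The sequences below show the antioxidant response element core, TGACNNNGC with N any base, where it occurs within 250 bases before the start of a measured member. Promoters were those of RefSeq on GRCm38.p6, which held 30 of the 36 genes. Hmox1, Gclc, Gsr, Gsta4, Prdx6 and Sod3 had no entry. The core, searched on both strands, occurred in 9 of the 30, against 11.5% of all 27025 genes in the table, and 7 of the 9 were among the genes measured. Each site is given 5′ to 3′ along the gene's strand with the matched bases in capitals, so that a match on the opposite strand appears as its reverse complement.
Nfe2l2: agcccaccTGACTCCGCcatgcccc
Gclm: tcccgggcGCACCGTCAactctcac
Gsta3: ctcaggcaTGACATTGCatttttct
Mgst1: ggggcttgGCACGGTCAggaggcgg
Txnrd1: ggatttttGCTTTGTCAttctgaca
Sod1: caaggtggGCGTGGTCAgactcagg
Mt2: agggggtgTGACTCAGCgcgggggg
They lie on GRCm38.p6 at chr2:75704887-75704911 (Nfe2l2, minus strand), chr3:122245415-122245439 (Gclm), chr1:21240456-21240480 (Gsta3), chr6:138140463-138140487 (Mgst1), chr10:82859106-82859130 (Txnrd1), chr16:90220698-90220722 (Sod1) and chr8:94172531-94172555 (Mt2), the last 6 on the plus strand. A match is a description of letters, not of binding, and the start a table gives need not be the one used in the aorta.

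Most members differed little between the arrays. From the lowest to the highest array the median member spanned 1.35-fold and the median of all genes 1.38-fold, and 20 of the 30 members (66.7%) stayed within 1.5-fold, against 63.8% of all genes. Gsta3, Gsta4, Prdx3 and Sod3 spanned 2-fold or more, 4 of the 30 (13.3%) against 10.3% of all genes.

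**Figure D1:**
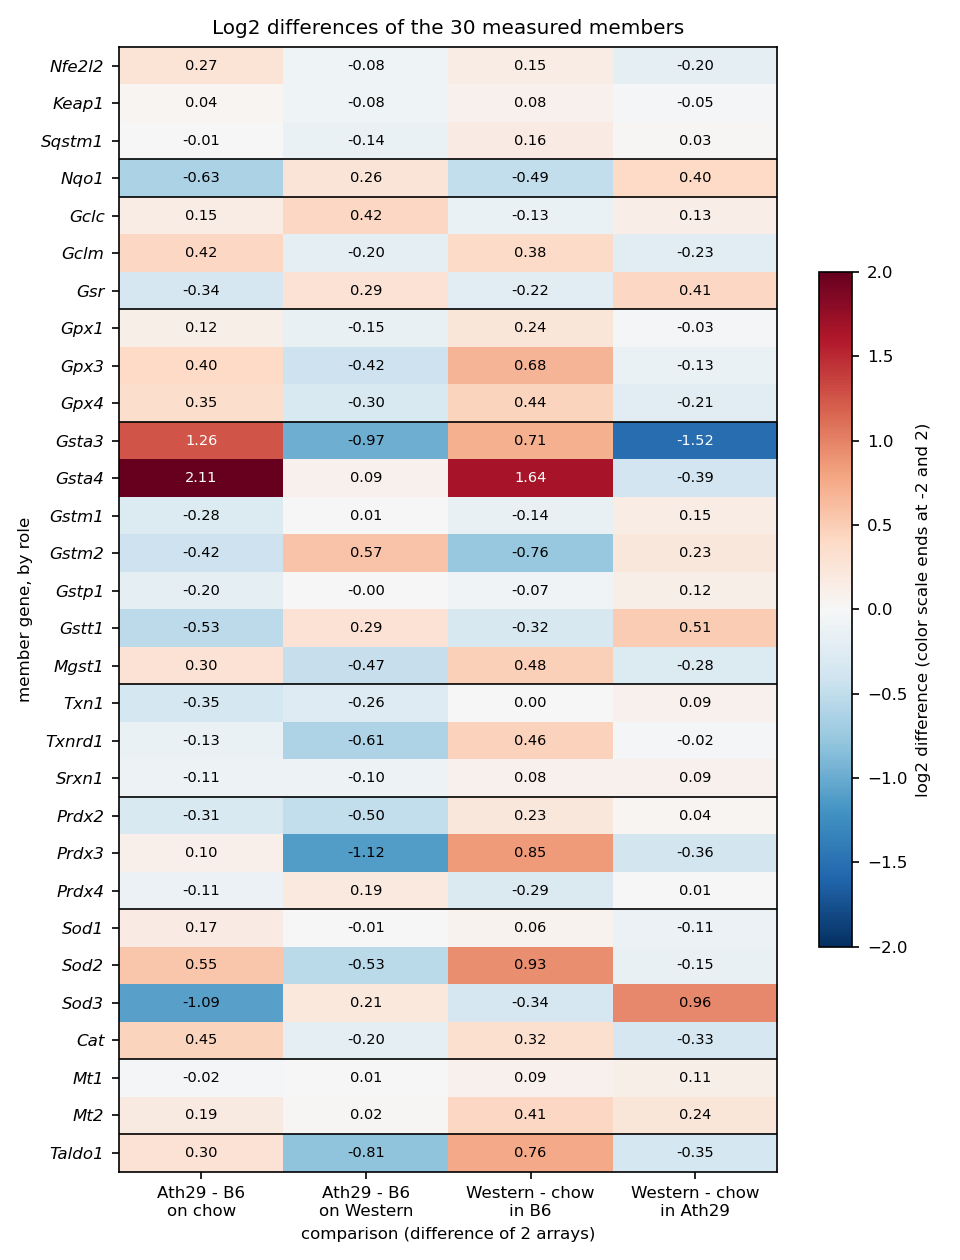
Log2 differences between 2 arrays for the 30 measured members (rows, grouped by role with lines between roles), for Ath29 minus B6 on each diet and Western minus chow in each strain (columns). Red is higher and blue lower, on a scale that ends at -2 and 2, which Gsta4 exceeds on chow at 2.11. Gsta3 and Gsta4 carry the deepest colors, while the rows of Keap1, Sqstm1, Srxn1, Sod1 and Mt1 are nearly white.

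The sensor and its regulators were close to level. Nfe2l2 read 454 (chow) and 504 (Western) in B6 and 548 and 476 in Ath29 mice, a span of 1.21-fold. Keap1, the NRF2 repressor, read 911, 965, 940 and 911 in the same order of arrays, a span of 1.06-fold. A second Keap1 probe set lay below the filter at 2.27 to 21.7. Sqstm1, the autophagy receptor p62 that binds KEAP1, read 376, 419, 374 and 381. No array stood apart for any of these genes.

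The classical NRF2 targets gave no common direction. Nqo1, a quinone reductase often used as a readout of NRF2, read 161 (chow) and 115 (Western) in B6 and 104 and 138 in Ath29 mice. It was thus lower on Western diet in B6 mice (-0.49 on the log2 scale, as are all differences below) and higher in Ath29 mice (0.40). Hmox1, which degrades heme and is induced by oxidised lipid, read 3.07, 19.0, 4.68 and 4.70 and was not told apart from background on any array. Gclm, the modifier subunit of the enzyme that limits glutathione synthesis, read 386, 504, 516 and 439, lowest in B6 chow. Its catalytic partner Gclc read 545, 498, 607 and 664, so both Ath29 arrays lay above both B6 arrays, with strain differences of 0.15 on chow and 0.42 on Western diet. A further Gclc probe set gave -0.10 and 0.26, and for Gclm the other probe set gave -0.46 on chow where the one used gave 0.42. Gsr, which returns oxidised glutathione to its reduced form, read 97.1, 83.5, 76.9 and 102, and the cystine importer gene Slc7a11 stayed below the filter on all arrays.

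The glutathione peroxidases shared an order of arrays. Gpx3, the secreted plasma form, read 2557 (chow) and 4109 (Western) in B6 and 3365 and 3078 in Ath29 mice. Gpx4, which reduces lipid peroxides within membranes, read 4574, 6198, 5831 and 5029. Gpx1, the cytosolic form, read 3852, 4549, 4188 and 4098. For all 3, B6 chow was the lowest array and B6 Western the highest. The second Gpx4 probe set, at 2201, 3605, 2342 and 2069, had Ath29 Western lowest. The diet difference in B6 was 0.68 for Gpx3, 0.44 for Gpx4 and 0.24 for Gpx1, and in Ath29 mice it was -0.13, -0.21 and -0.03.

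Glutathione transferases, which conjugate glutathione to electrophiles, held the largest differences. Gsta4, which acts on 4-hydroxynonenal, an aldehyde of lipid peroxidation, read 120 (chow) and 374 (Western) in B6 and 518 and 397 in Ath29 mice. B6 chow alone was low, and the other 3 arrays lay between 374 and 518. On chow the Ath29 array read 4.32-fold higher than B6 (2.11), while on Western diet the strains read alike (0.09). In B6 mice Western diet read 3.12-fold higher than chow (1.64), and in Ath29 mice 1.31-fold lower (-0.39). Gsta4 has a single probe set, so no other reading checks it within the array. The strain difference on chow and the diet difference in B6 share the B6 chow array.

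Gsta3, another alpha-class transferase, read 152 (chow) and 249 (Western) in B6 and 364 and 127 in Ath29 mice. Ath29 chow was highest and Ath29 Western lowest, a diet difference of -1.52 in Ath29 mice and 0.71 in B6 mice. Between strains the difference was 1.26 on chow and -0.97 on Western diet. A further Gsta3 probe set, below the filter at 8.42 to 23.2, gave 1.19 on chow and 0.91 on Western diet, and with the mean of both the difference between diets in Ath29 mice was -0.94, no longer 2-fold, and that between strains on Western diet -0.03.

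Other transferases differed less. Gstm2, of the mu class, read 99.1 (chow) and 58.4 (Western) in B6 and 74.2 and 86.8 in Ath29 mice, lower on Western diet in B6 mice by 1.70-fold. Gstt1, of the theta class, read 1467, 1178, 1016 and 1442. Mgst1, a membrane-bound form that also reduces lipid peroxides, read 4161, 5819, 5111 and 4213. Gstm1 read 4408, 3995, 3640 and 4027, and Gstp1 4623, 4391, 4031 and 4382. By their names, the probe sets of Gstp1 and Mgst1 can bind several transcripts, so these values are uncertain as to the transcript. The same holds for the probe sets used for Sqstm1, Gclc, Gpx4, Txnrd1, Srxn1, Prdx2, Prdx4, Sod1, Sod2, Cat, Mt1 and Taldo1.

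**Figure D2:**
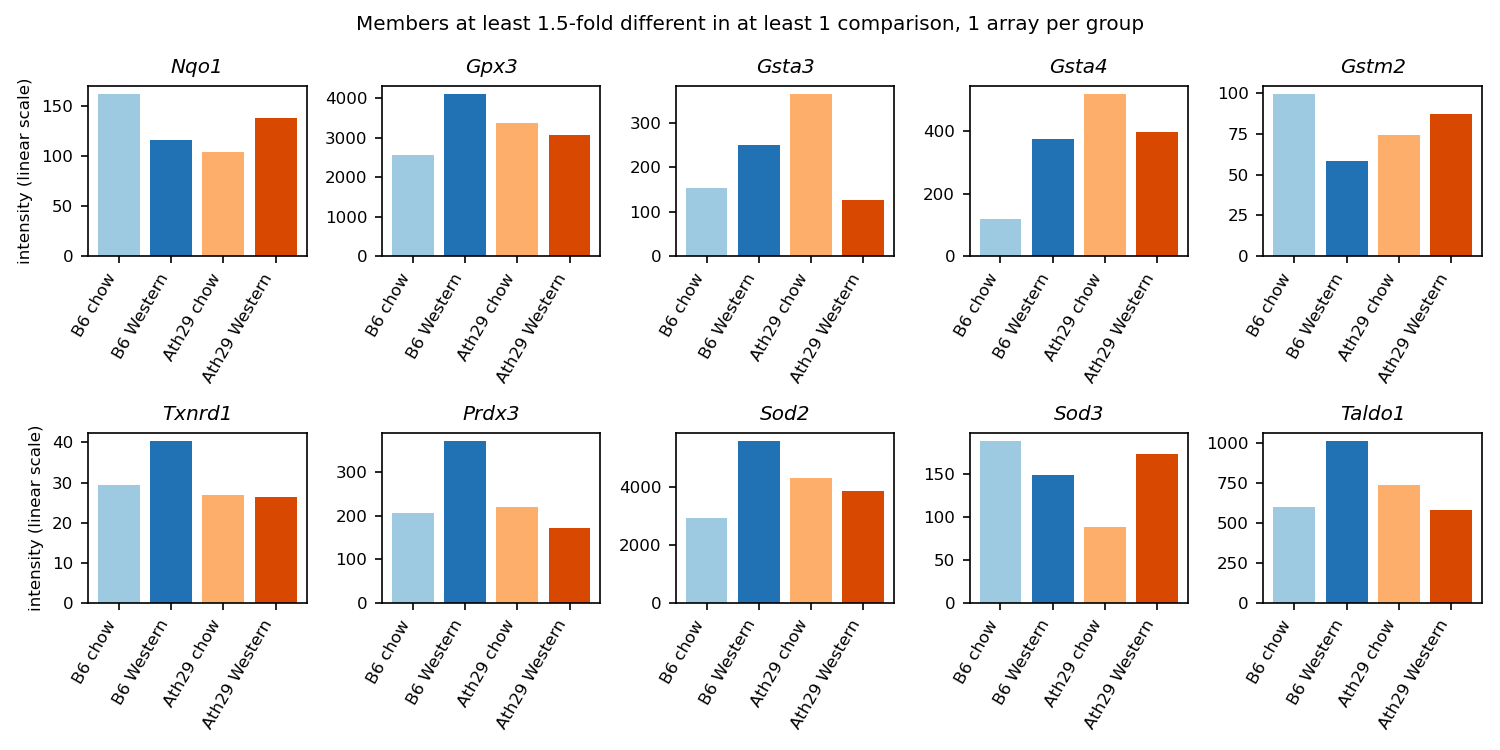
Intensity (linear scale, each axis from 0) of the 10 members at least 1.5-fold different in at least 1 comparison, with 1 bar per array and no error bars because each group has 1 array. Gsta4 is low in B6 chow alone, Sod3 is lowest in Ath29 chow, and Prdx3, Sod2 and Taldo1 are highest in B6 Western.

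Among thioredoxin genes, Txn1 read 5272 (chow) and 5285 (Western) in B6 and 4144 and 4410 in Ath29 mice. Both Ath29 arrays lay below both B6 arrays, by -0.35 on chow and -0.26 on Western diet. A further Txn1 probe set gave 0.14 and -0.31, so the direction on chow depends on the probe set. Srxn1, the sulfiredoxin that restores overoxidised peroxiredoxins and is a known NRF2 target, read 193, 204, 179 and 191. Another of its probe sets, at 29.0 to 60.5, gave strain differences of 0.68 and 0.57. A further one, at 77.1 to 96.0, gave 0.11 and 0.32 where the one used gave -0.11 and -0.10. Txnrd1, the reductase of thioredoxin, read 29.4, 40.4, 26.9 and 26.5, with both Ath29 values below 27.5.

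Of the peroxiredoxins, Prdx3 is the mitochondrial form. Its values were 206 (chow) and 373 (Western) in B6 and 221 and 172 in Ath29 mice. B6 Western was high and the others lay together, so that Prdx3 was 2.17-fold lower in Ath29 than in B6 mice on Western diet (-1.12) and 1.81-fold higher on Western diet in B6 mice (0.85). Prdx2, the cytosolic form abundant in red cells, read 1622, 1906, 1311 and 1350, lower on both Ath29 arrays by -0.31 and -0.50. Its second probe set gave -0.80 and -0.19, the same direction. Of 3 red cell markers past the filter, 1 was lower and 2 higher in Ath29 mice on chow, and 3 were higher on Western diet. Their summed level was 493, 696, 775 and 896, and their part in the Prdx2 difference was not tested. Prdx4, of the endoplasmic reticulum, read 2484, 2025, 2299 and 2317.

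Sod2, the mitochondrial superoxide dismutase, read 2947 (chow) and 5611 (Western) in B6 and 4306 and 3881 in Ath29 mice. B6 Western was thus 1.90-fold above B6 chow (0.93), and 4 probe sets gave diet differences in B6 between 0.18 and 1.12. In Ath29 mice the diet difference was -0.15, and the 4 probe sets gave -1.36 to -0.15, the lower end from a probe set at 19.3 to 59.2. Sod3, the extracellular form that vascular smooth muscle secretes, read 190, 150, 89.0 and 174. Ath29 chow was low, 2.13-fold below B6 chow (-1.09), and in Ath29 mice Western diet read 1.95-fold above chow (0.96). Contractile smooth muscle markers were also lower in Ath29 than in B6 mice on chow, 8 of 8 with a median of -0.23. Of the 8, 7 stayed within 1.5-fold. Myh11 was the lowest at -1.30 and read 2049, 1369, 833 and 1319. The part of these markers in the Sod3 difference was not tested. With the mean of 2 Sod3 probe sets, the second below the filter on average, the chow difference was -0.75. Cytosolic Sod1 read 7751, 8103, 8703 and 8048, and catalase (Cat), which breaks down hydrogen peroxide, 4509, 5635, 6170 and 4903.

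Metallothioneins, cysteine-rich proteins that bind zinc and copper and scavenge radicals, were near level. Mt1 read 7024 (chow) and 7454 (Western) in B6 and 6920 and 7488 in Ath29 mice, and Mt2 3741, 4958, 4258 and 5037. Both genes were somewhat higher on Western diet in each strain, by 0.09 and 0.11 for Mt1 and by 0.41 and 0.24 for Mt2. The Mt1 probe set used can bind several transcripts, and the other, at 63.1 to 133, gave -0.14 in B6 and 0.68 in Ath29 mice on Western diet and -1.07 between strains on chow. The 2 genes are neighbours on chromosome 8 and are switched on by metals through metal response elements. The 250 bases before each start are shown because these genes are read as a pair. Capitals mark matches on either strand to TGCNCNC, a loose pattern for the core of that element.
Mt1: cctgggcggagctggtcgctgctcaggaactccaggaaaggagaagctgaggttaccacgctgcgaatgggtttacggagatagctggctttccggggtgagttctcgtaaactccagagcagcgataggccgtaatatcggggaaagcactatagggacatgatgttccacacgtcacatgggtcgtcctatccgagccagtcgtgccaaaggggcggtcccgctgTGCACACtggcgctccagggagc
Mt2: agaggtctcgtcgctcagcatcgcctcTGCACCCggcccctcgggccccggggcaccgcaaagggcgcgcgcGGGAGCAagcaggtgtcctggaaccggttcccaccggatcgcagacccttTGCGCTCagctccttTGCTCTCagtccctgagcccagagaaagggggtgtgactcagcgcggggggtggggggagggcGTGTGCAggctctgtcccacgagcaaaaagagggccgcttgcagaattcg
They span chr8:94178839-94179088 for Mt1 and chr8:94172368-94172617 for Mt2, both on the plus strand of GRCm38.p6. The Mt2 window held 5 matches and the Mt1 window 1. Of all genes listed there, 47.2% held at least 1, so the pattern alone is common and need not mark a metal response element. The start a table gives need not be the one used in the aorta, and bases beyond these windows were not searched. The counts therefore do not compare the elements of the 2 genes.

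Taldo1, transaldolase of the pentose phosphate pathway that feeds NADPH supply, read 599 (chow) and 1014 (Western) in B6 and 736 and 578 in Ath29 mice. B6 Western was the high array, 1.69-fold above B6 chow (0.76) and 1.75-fold above Ath29 Western (-0.81 for Ath29 minus B6).

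The comparison of strains asks how aortic transcripts differ with the Ath29 segment. On chow, 2 members were at least 2-fold higher in Ath29 mice (Gsta3 and Gsta4) and 1 lower (Sod3), 3 of 30, where 4.11% of all genes lay that far apart, 2.17% higher and 1.94% lower. The median member difference was 0.07 against -0.08 for all genes, with 16 members above 0 and 14 below. On Western diet, Prdx3 was the 1 member at least 2-fold different, 3.33% of members against 2.88% of all genes (0.845% higher and 2.03% lower), and the median was -0.09 against 0.00, with 11 members above 0 and 19 below. None was 1.5-fold or more different in the same direction on both diets, where 0.44% of all genes were higher and 0.83% lower. At any size, 3 were higher on both diets (Gclc, Gsta4 and Mt2) and 6 lower (Sqstm1, Gstp1, Txn1, Txnrd1, Srxn1 and Prdx2), where 18.5% of all genes were higher and 26.7% lower on both. These lists hold for the probe sets used. Srxn1 was higher on both diets by its other probe sets past the filter, and Gclc and Txn1 changed sign on chow. Sqstm1 on chow (-0.007) and Gstp1 on Western diet (-0.003) lay at nearly 0. With quantile scaling 28 of 30 members kept their sign on chow and 27 on Western diet.

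The comparison of diets asks what 2 weeks of Western diet do in each strain. In B6 mice 1 member, Gsta4, was at least 2-fold higher and 0 lower, 3.33% against 5.28% of all genes (4.11% higher and 1.17% lower). At 1.5-fold, 6 were higher (Gpx3, Gsta3, Gsta4, Prdx3, Sod2 and Taldo1) and 1 lower (Gstm2), 23.3% against 17.1% of all genes (9.95% higher and 7.13% lower). The median was 0.15 against -0.06, and 21 of 30 members lay above 0. In Ath29 mice 1 member, Gsta3, was at least 2-fold lower and 0 higher, 3.33% against 2.18% of all genes (0.854% lower and 1.32% higher). The median was -0.01 against 0.04, with 15 members on each side of 0. Across the 2 strains, 6 members were higher on Western diet in both (20.0%, against 19.3% of all genes), 0 lower in both (19.7% of all genes) and 24 went in opposite directions (80.0%, against 60.9% of all genes). Macrophage markers were higher on Western diet in both strains, 7 of 7 measured, with medians of 0.89 and 0.84 (summed level 4088 and 8189 in B6, 4703 and 7972 in Ath29). Their part in the members' differences was not tested.

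**Figure D3:**
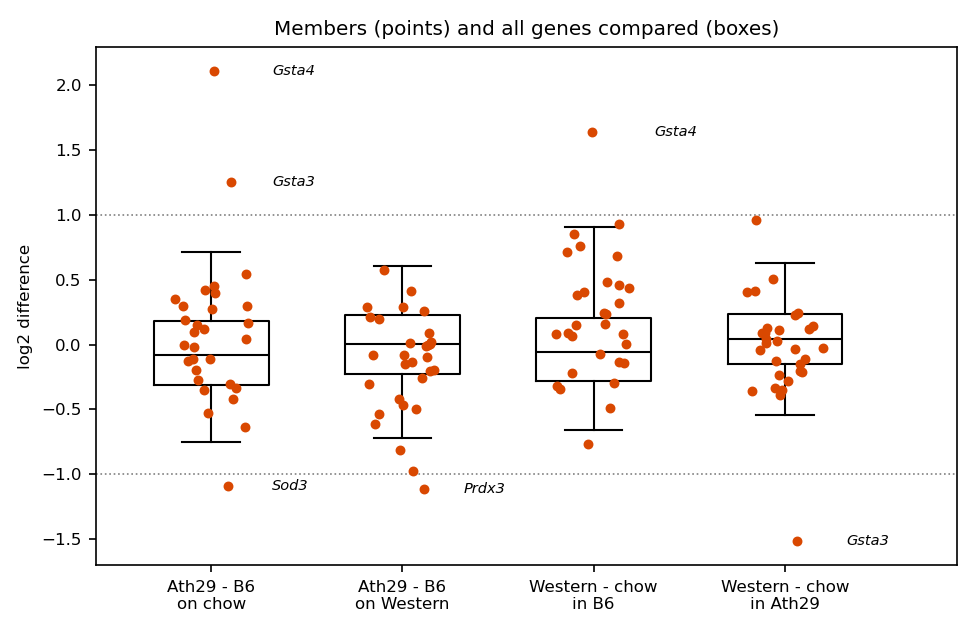
Log2 differences of the 30 members (orange points, spread sideways for visibility) over those of all 11715 genes (boxes from the 25th to the 75th percentile with the median, whiskers from the 5th to the 95th) in the 4 comparisons. Dotted lines mark 2-fold, and the members past them are named: Gsta3, Gsta4 and Sod3 on chow, Prdx3 on Western diet, Gsta4 in B6 and Gsta3 in Ath29.

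The strain by diet difference, Western minus chow in Ath29 mice less the same in B6 mice, uses all 4 arrays. It was at least 2-fold for 6 members, 20.0% against 11.7% of all genes (4.95% positive and 6.77% negative). Sod3 was positive (1.30), and Gsta3 (-2.23), Gsta4 (-2.03), Prdx3 (-1.21), Taldo1 (-1.11) and Sod2 (-1.08) were negative. At 1.5-fold there were 15 members where 31.1% of all genes lay that far apart. For strain there were 4 on chow (16.9% of all genes) and 4 on Western diet (13.5%), and for diet in Ath29 mice 2 (10.4%). The median over members was -0.17 against 0.11 over all genes.

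Several of the 30 members followed the order of the fat markers, a pattern looked for after the values were seen. Gpx1, Gpx3, Gpx4, Mgst1 and Sod2 ran from B6 Western through Ath29 chow and Ath29 Western down to B6 chow, 5 of 30 members (16.7%) against 7.54% of all genes. The same order held for 6 of 7 brown fat markers and 3 of 5 measured white fat markers, among them Ucp1, the uncoupling protein of brown fat, at 3525 (chow) and 5452 (Western) in B6 and 4465 and 3756 in Ath29 mice, and Adipoq, the adipocyte hormone adiponectin, at 3143, 5358, 4702 and 3833. Prdx3 and Taldo1 were also highest in B6 Western but lowest in Ath29 Western. The part of fat or of heart muscle in these differences was not tested. For Gpx4 the order depends on the probe set. Without B6 Western, the lowest of the remaining arrays was B6 chow for 12 of 30 members (40.0%, against 29.8% of all genes), Ath29 chow for 13 (43.3%, against 44.0%) and Ath29 Western for 5. The highest was B6 chow for 11 (36.7%, against 43.4%), Ath29 chow for 14 (46.7%, against 28.8%) and Ath29 Western for 5.

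**Figure D4:**
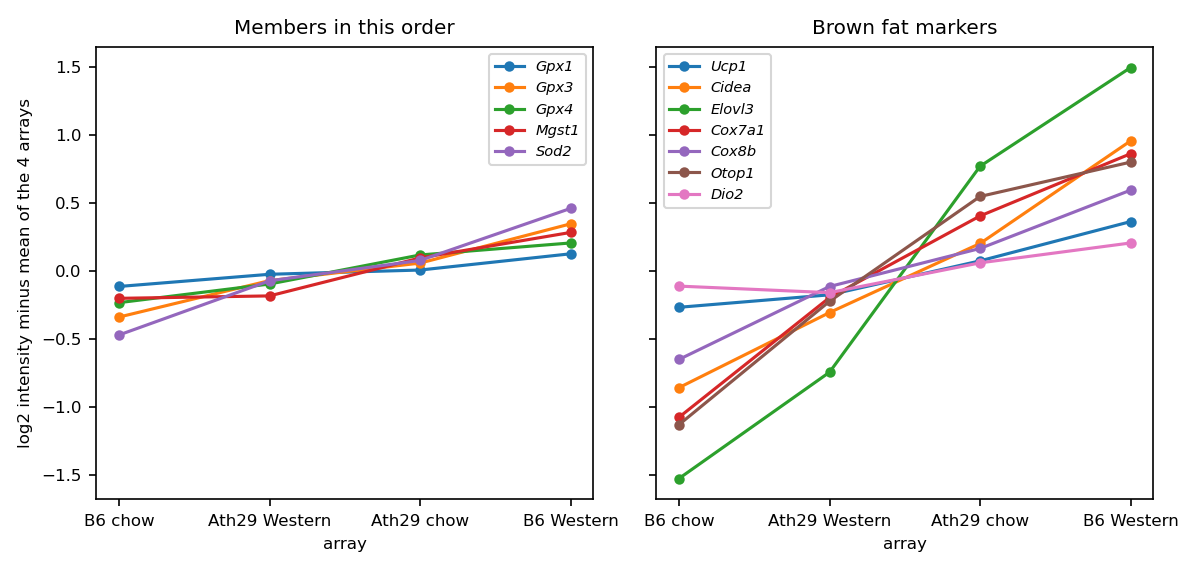
Log2 intensity minus the mean of the 4 arrays, for the 5 members whose values go upward along the horizontal axis, from B6 chow to B6 Western (left) and for the 7 brown fat markers (right), 1 line per gene. The members span a narrower range than the markers, from Gpx1 as the flattest to Sod2 as the steepest, and 6 of the 7 markers go upward at each step from left to right (not Dio2).

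The single test that the design allows is a limma model with strain and diet as terms, whose error is the strain by diet difference. It called 0 of 30 members for strain and 0 for diet at an adjusted p under 0.05, with 0.00% of all genes called in each. At an unadjusted p under 0.05 it held 0 members, against 2.59% of all genes for strain and 2.51% for diet. Gsta4 had the lowest p for strain, with an estimate of 1.10 ± 0.48 (SE) and an adjusted p of 1.0 by limma. These values do not show that the groups are alike, since 1 residual degree of freedom among 4 arrays leaves wide errors.

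Probe sets of the same gene give a sense of error within an array. Over the 12 members with more than 1 probe set past the filter, the readings of a gene spread over a median of 0.49 in the strain difference on chow, 0.35 on Western diet, 0.29 in the diet difference of B6 and 0.28 in that of Ath29 mice. All probe sets had the same sign in 6, 6, 7 and 7 of the 12 genes. A difference of this size is within the disagreement between probes.

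**Figure D5:**
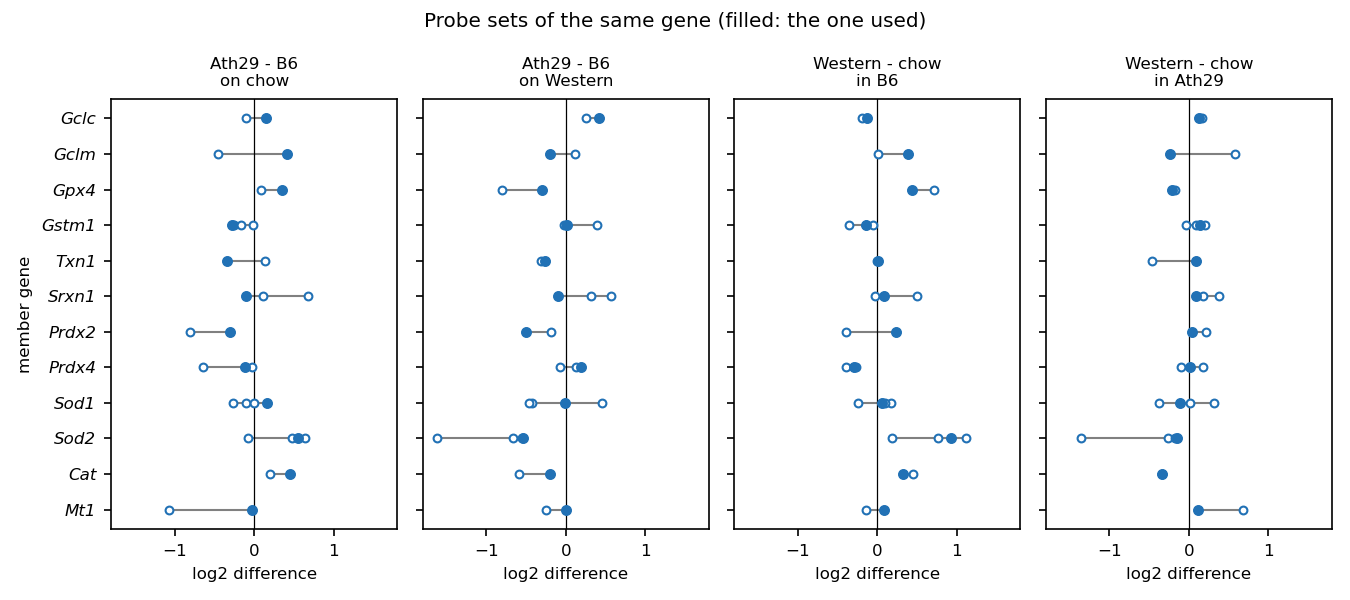
Log2 differences by probe set for the 12 members with more than 1 probe set past the filter, in the 4 comparisons. The filled point is the probe set with the highest mean, used throughout, open points are the others, and grey lines join them. Gpx4 and Cat keep their sign in each panel, while Sod1 crosses 0 in each and Gclm and Mt1 in some.

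Members with an antioxidant response element core near the start, shown above, were compared with those without. By the probe sets used, all 7 lay above 0 on Western diet in B6 mice. Their median was 0.41 and their range 0.06 to 0.71. In Ath29 mice 6 of 7 lay below 0, with a median of -0.20. Both counts depend on the probe set. The other Gclm probe set past the filter had diet differences of 0.01 (B6) and 0.58 (Ath29). Sod1 probe sets past the filter spanned -0.24 to 0.18 (B6) and -0.38 to 0.32 (Ath29). Txnrd1 counts as below 0 in Ath29 mice at -0.02, with both values under 27.5. Of the 19 members in the promoter table without the core, 13 lay above 0 in B6 and 11 in Ath29 mice, with medians of 0.09 and 0.03, and of all genes 43.4% and 56.2% did. Between strains the 7 had medians of 0.27 on chow and -0.20 on Western diet, and the 19 had -0.02 and -0.14. These are descriptions of few genes, and the B6 chow array enters both values in which the 7 stand higher.

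Since Ath29 is a locus of chromosome 9, the members there were read by position in gene order. Keap1, Gclc, Gpx1 and Gsta4 lie on it, at places 57, 373, 517 and 378 of the 646 measured genes of the chromosome, so Gclc and Gsta4 are near neighbours. Strain differences on chow and Western diet were 0.04 and -0.08 for Keap1, 0.15 and 0.42 for Gclc, 0.12 and -0.15 for Gpx1, and 2.11 and 0.09 for Gsta4. By the probe sets used, only Gclc and Gsta4 of these were higher in Ath29 mice on both diets. None was so by 2-fold on both, where 0.08% of all genes were. The further Gclc probe set gave -0.10 on chow. Of all chromosome 9 genes, 6.81% were at least 2-fold different on chow and 5.11% on Western diet. Rcn2, published as a candidate for Ath29, lies at place 237.

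A wider list of 68 antioxidant genes that are no members, of which 61 passed the filter, held few differences of 2-fold. In B6 mice 3 were at least 2-fold higher on Western diet (4.11% of all genes) and 0 lower, and in Ath29 mice 0 differed by 2-fold (2.18% of all genes). Between strains 0 were 2-fold different on chow (4.11% of all genes), and on Western diet 1 was lower in Ath29 mice (2.03% of all genes). The 3 were Gstz1, a zeta-class transferase of tyrosine breakdown (101, 216, 176 and 123), Cbr1, a carbonyl reductase (269, 540, 390 and 314), and the theta-class transferase Gstt2 (23.2, 62.4, 45.9 and 26.5), 2 of whose values lie below 27.5. Gstt2 was also the gene lower in Ath29 mice on Western diet (-1.24). In the strain by diet difference 5 of the 61 reached 2-fold, where 11.7% of all genes did. They were these 3 and Gstm7 (-1.04) and Tkt (-1.17). The median of that difference was 0.01 where the members had -0.17 and all genes 0.11. The order of the fat markers held for 13 of the 61 (21.3%), Gstt2, Gstz1 and Cbr1 among them, against 7.54% of all genes. Over the list the median strain difference was -0.04 (chow) and -0.14 (Western), and the median diet difference 0.09 (B6) and -0.01 (Ath29).

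Of 17 genes that make oxidants, 10 passed the filter. On Western diet 9 of the 10 lay above 0 in Ath29 mice (median 0.38), where 56.2% of all genes did, and 4 of 10 in B6 mice (median -0.12), where 43.4% of all genes did. Between 2 arrays only Xdh, xanthine dehydrogenase, reached 2-fold, and in the strain by diet difference only Maoa, a monoamine oxidase (1.01). Xdh read 16.3 (chow) and 35.5 (Western) in B6 and 24.8 and 48.3 in Ath29 mice, neither chow value above 27.5. Cybb, the phagocyte NADPH oxidase subunit, read 124, 222, 152 and 210, higher on Western diet in each strain, as the macrophage markers were. Nox4, the oxidase of smooth muscle, read 1523, 1538, 993 and 1428, low in Ath29 chow like Sod3.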

How the data were processed

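Total RNA of mouse aorta, per the source label, was hybridised as biotin-labelled cRNA from 8 ug to Affymetrix arrays, per the labels' protocols, 1 array in each of 4 groups. The authors deposited 1 table of intensity values for 45101 probe sets. How background was corrected and probes summarised is not given in the sources used here. Values were taken to log2, shifted to a common array median and raised to a floor at the 25th percentile of all values (9.60). Probe sets with a mean above the median of all (27.5) were kept, and each gene was read from its kept probe set with the highest mean. Of 45101 probe sets, 34945 had 1 gene symbol and 932 several. Members and lists were chosen with earlier results of these data known. Named genes were every member, genes of the wider lists at least 2-fold different between 2 arrays in at least 1 of the 4 strain or diet differences, and up to 3 of each marker list. Beyond that rule Cybb, Nox4, Maoa, Gstm7, Tkt, Cyp2e1, Dio2 and Rcn2 were chosen after their values were seen. Results of further marker lists were: endothelium 5, fibroblast 6, neutrophil 5, skeletal muscle 4 and red cell 3 genes past the filter, with median strain differences on chow of 0.00, -0.24, 0.16, -0.19 and 0.72. On Western diet the medians were 0.21, 0.02, -0.07, -1.08 and 0.54. Skeletal muscle markers summed to 276 (chow) and 549 (Western) in B6 and 98.8 and 113 in Ath29 mice. The part of skeletal muscle in the members' differences was not tested. The additive fit used limma 3.58.1 in R 4.3.3 with Benjamini-Hochberg adjustment over 11715 genes. It was run on simulated data with strain differences and no strain by diet difference. That run does not check the fit where strain by diet differences are present. Other steps used Python 3.11.15. The number of arrays limits the precision.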

Additional observations from a re-analysis of the deposited data

Results flagged for a closer look

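For 6 members the diet difference ran in opposite directions in B6 and Ath29 mice and the gap was at least 2-fold, with each group held by 1 array, so the difference between strains was not tested for any of them. The strain by diet difference was -2.23 for Gsta3, -2.03 for Gsta4, -1.21 for Prdx3, -1.11 for Taldo1, -1.08 for Sod2 and 1.30 for Sod3 on the log2 scale. With the mean of its probe sets, the diet difference of Sod3 was positive in both strains (B6 0.26, Ath29 1.25), with a strain by diet difference of 0.99, under 2-fold. Among all genes 11.7% had a strain by diet difference of at least 2-fold.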

How the results depend on the processing

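Counts of members at least 2-fold different were 3 and 1 for strain on chow and Western diet, 1 and 1 for diet in B6 and Ath29 mice, and 6 for the strain by diet difference. With 1.5-fold in place of 2-fold they were 4, 4, 7, 2 and 15. Without a filter on low values, Slc7a11 joined for strain on Western diet and for diet in Ath29 mice, which gave 2 and 2, and for the strain by diet difference, which gave 7. The 5 alternatives of quantile scaling, leaving arrays unshifted, scaling to the 75th percentile, a stricter filter and a floor of 1 unit named the same members as called, and no 2-fold difference turned its direction under any alternative run. With the mean of all probe sets, Sod3 on chow (-0.75) and Gsta3 in Ath29 mice (-0.94) fell short of 2-fold, Sod3 in Ath29 mice passed it (1.25), Sod3 no longer reached 2-fold in the strain by diet difference (0.99), Keap1 (1.01) and Mgst1 (-1.05) did, and the median of that difference went from -0.17 to -0.01. Sod3 in B6 mice, under 2-fold in each case, went from -0.34 to 0.26, and Txnrd1 on chow from -0.13 to 0.36. The mean also takes in probe sets that failed the filter. Those added for Keap1, Mgst1 and Txnrd1 lay under 27.5 units on every array. By the probe sets used, the strain by diet difference was -0.13 for Keap1 and -0.76 for Mgst1. Leaving out probe sets with possible binding to several transcripts, 23 members were left and Mt1 joined on chow (-1.07). Taldo1, which has no other probe set, was then no longer measured and left the strain by diet difference. The limma model called 0 members in each setting, and 0 to 2 of all genes. No paired analysis was possible because each group has 1 array. Values below 27.5 units, as for Hmox1 and Slc7a11, are not told apart from background, and differences against them are not exact.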
